A study of Mus musculus with 3 samples.

Results

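Cells with RNA of the transcription factors of cortical excitatory neurons were found in the E13.5 library of embryonic mouse palate. They were chosen by rule from barcodes with at least 500 detected genes. A barcode was taken when it held a transcript count (UMI, unique molecular identifier, 1 per captured RNA molecule) of at least 2 of the 6 genes Neurod6, Neurod2, Tbr1, Eomes, Bhlhe22 and Zbtb18 and no UMI of Gad2 or Slc32a1. The rule took 258 of 3692 barcodes, or 6.99% (exact binomial 95% interval 6.19 to 7.86). The 3 libraries of the series held 8107 such barcodes. These 258 barcodes are called members, and the other 3434 barcodes of the E13.5 library are called other barcodes. The E13.5 library came from wild-type C57BL/6J palatal shelves of 3 pooled embryos, as did the E14.5 and E15.5 libraries, each from shelves of its own stage. There is 1 library per stage, and no label ties a cell to an embryo, so no test was run, and every interval covers counting error only.

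The excitatory neurons of the cerebral cortex descend from radial glia, the dividing stem cells that line the ventricle. Radial glia that commit to this fate switch on Neurog2 and then Eomes (Tbr2), the mark of intermediate progenitors, and the newborn neurons follow with Neurod1, Neurod2, Neurod6 and Tbr1. Inhibitory cortical neurons arise elsewhere, under Dlx genes, and make GABA with Gad1 and Gad2. The secondary palate itself is built from mesenchyme under an epithelium.

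The upstream sequences of 4 genes are shown because Eomes and Neurod6 divide the members into the states described further on, and Neurog2 and Neurod2 are bHLH genes of the same lineage. Each is the 250 bases before the gene's RefSeq start (GRCm38.p6, read 5′ to 3′ on the gene's strand). Capitals mark each CANNTG, the E-box that bHLH proteins such as Neurog2 and the Neurod factors bind, which reads the same on both strands.
Neurog2, chr3:127632886-127633135, plus strand: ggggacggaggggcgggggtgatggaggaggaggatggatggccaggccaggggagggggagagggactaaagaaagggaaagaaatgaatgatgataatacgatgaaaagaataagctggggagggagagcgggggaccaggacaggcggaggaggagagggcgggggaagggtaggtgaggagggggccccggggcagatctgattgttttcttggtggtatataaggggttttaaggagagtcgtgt
Eomes, chr9:118477939-118478188, plus strand: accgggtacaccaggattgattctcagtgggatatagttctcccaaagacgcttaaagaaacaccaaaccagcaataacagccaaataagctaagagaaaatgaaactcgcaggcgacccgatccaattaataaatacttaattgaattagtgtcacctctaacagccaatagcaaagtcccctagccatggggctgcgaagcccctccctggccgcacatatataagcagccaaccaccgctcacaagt
Neurod6, chr6:55681264-55681513, minus strand: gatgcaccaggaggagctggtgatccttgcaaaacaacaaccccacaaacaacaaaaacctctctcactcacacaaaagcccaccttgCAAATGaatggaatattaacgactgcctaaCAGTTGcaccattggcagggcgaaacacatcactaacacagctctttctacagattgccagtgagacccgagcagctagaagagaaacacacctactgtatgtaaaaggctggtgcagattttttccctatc
Neurod2, chr11:98329646-98329895, minus strand: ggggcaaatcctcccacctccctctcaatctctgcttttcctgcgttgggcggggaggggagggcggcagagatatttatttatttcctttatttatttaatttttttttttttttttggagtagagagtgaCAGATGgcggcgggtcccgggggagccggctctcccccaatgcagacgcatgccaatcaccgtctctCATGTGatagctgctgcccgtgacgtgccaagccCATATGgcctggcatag
The Neurod6 sequence held 2 E-boxes and the Neurod2 sequence held 3, while the Eomes and Neurog2 sequences held 0. At least 1 E-box was present in 66.2% of all 32851 upstream sequences of this length, so its presence is common. The CAGATG form (CATCTG on the other strand), 1 kind of CANNTG, was in 14.4% of them and among these 4 genes only in Neurod2. A match is a description of the letters and not a bound site.

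The selection genes chose the members, so their levels are given as a description only. Neurod6 (chromosome 6, 55677822 to 55681263, minus strand, mm10) was found in 173 members (67.1%), with a median of 2 UMIs and at most 11. Zbtb18, a transcriptional repressor, was found in 145 members (56.2%), Neurod2 in 132 (51.2%) and Tbr1, a T-box factor of deep-layer neurons, in 128 (49.6%). Bhlhe22 was found in 84 members (32.6%) and Eomes in 61 (23.6%). Summed over the members, the level of Neurod6 was 432 CPM (UMIs of the gene scaled to a total of 1000000), against 24.6 CPM in the other barcodes. The pairs found together most often were Neurod6 with Neurod2 and Neurod6 with Zbtb18, in 90 members each, followed by Neurod6 with Tbr1 in 87. Eomes shared 36 members with Neurod6. The rule was met at its minimum of 2 genes by 133 members, with 3 genes by 68, with 4 by 35, with 5 by 19 and with all 6 by 3. Of the 4 marker genes given for these cells, Neurod6, Neurod2, Tbr1 and Eomes, 6 members held none.

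Membership went with depth. The members had a median of 2766.5 UMIs per barcode (656 to 44058) and the other barcodes 1943.5. The share that met the rule went from 3.24% (2.02 to 4.91) among barcodes of up to 1000 UMIs to 16.1% (9.98 to 24.0) among those over 10000. A further 86 barcodes with at least 2 selection genes were removed for a UMI of Gad2 or Slc32a1. These had a median of 9727.5 UMIs, and 42 of them exceeded 10000. Just inside the threshold, the 133 members with 2 selection genes had a median of 2381 UMIs. Just outside it, 398 barcodes with 1 selection gene and no Gad2 or Slc32a1 had a median of 2388. Plxna4, a semaphorin receptor of growing axons, was at 649 CPM inside and 223 CPM outside. Slc17a6, the vesicular glutamate transporter VGLUT2, was at 158 and 90.1 CPM, and Neurod1 at 172 and 113 CPM. Among the 125 members with 3 or more selection genes, Plxna4 was at 1043 CPM and Neurod1 at 221 CPM.

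**Figure D1:**
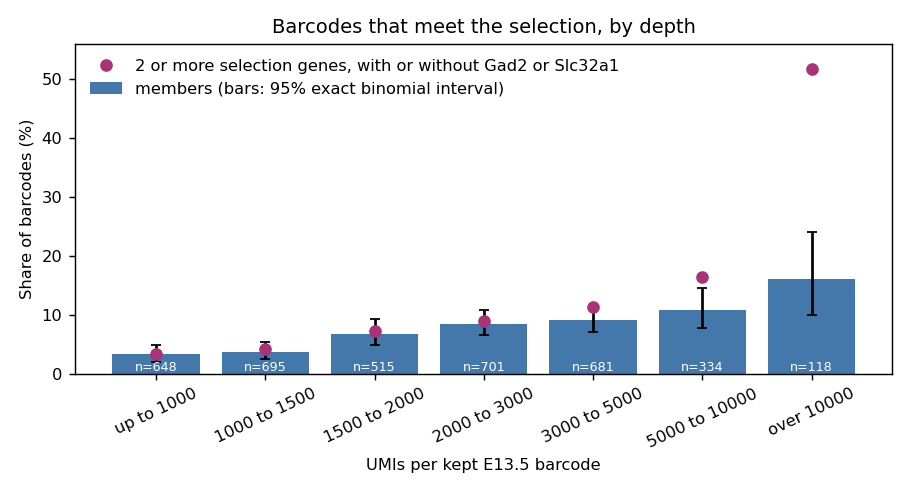
Share of kept E13.5 barcodes (vertical axis, %) that met the selection, by UMIs per barcode (horizontal axis); bars are members with exact binomial 95% intervals and dots add barcodes that also held Gad2 or Slc32a1. The bars go from 3.24% in the shallowest class to 16.1% in the deepest, where the dot stands at 51.7%.

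The deepest members need to be named before the results. Members over 10000 UMIs numbered 19, which is 7.36% of the members and 27.7% of their UMIs, and 11 of these 19 also held at least 3 of 7 mesenchymal genes. The scrublet doublet caller made 0 calls at its automatic threshold, so no barcode was removed by it. At a rate of 0.8% per 1000 barcodes, 109 barcodes would be left out, 13 of them members (5.04%) and 96 others (2.80%). Levels are therefore also given without barcodes over 10000 UMIs, which leaves 239 members. Barcode sequences recurred between libraries 3 times for E13.5 and E14.5, 1 time for E13.5 and E15.5 and 1 time for E14.5 and E15.5, and 1 of the recurring barcodes was a member. Median mitochondrial shares were 0.438% in members and 0.505% in the other barcodes. Xist RNA was found in 159 members, and UMIs of 4 Y-linked genes in 0.

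The later libraries held almost no such cells. The rule took 3 of 1775 barcodes at E14.5 (0.169%, 0.0349 to 0.493) and 3 of 2640 at E15.5 (0.114%, 0.0234 to 0.332). Over the whole kept libraries, Neurod6 was at 62.7 CPM at E13.5 (693 UMIs), at 0.394 CPM at E14.5 (2 UMIs) and at 0.127 CPM at E15.5 (1 UMI). Eomes had 201 UMIs at E13.5, 1 UMI at E14.5 and 0 at E15.5. Emx1, a homeobox factor of the cortical field, had 65 UMIs in the first library and 1 in each of the others. The E14.5 barcodes that met the rule had a median of 55651 UMIs, and all 3 held at least 3 mesenchymal genes, as did 2 of the 3 at E15.5. With 1 library per stage, a change with stage cannot be told apart from a difference in what was dissected or captured.

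Outside the selection genes, the members were compared with the other barcodes by the ratio of summed CPM, with 1 CPM added to each. A gene was called at 2-fold. Of 9340 genes with a mean of at least 10 CPM over both groups, 173 were called higher in members (1.85% of those tested) and 339 lower (3.63%). The median log2 ratio of all tested genes was -0.02. The members were chosen by their RNA and the other barcodes mix many cell types, so these calls describe the chosen cells and are no test. Without barcodes over 10000 UMIs, 258 of 9241 genes were called higher (2.79%) and 658 lower (7.12%).

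Among cortical factors that the rule did not use, Emx1 and Fezf2 were higher in members. Emx1 stood at 26.1 CPM in members and 3.79 CPM in other barcodes, 6.89-fold higher (95% interval 4.05 to 11.6), with 27 UMIs in 23 members. Fezf2, which specifies subcortical projection neurons, was at 22.3 and 7.68 CPM, 2.90-fold higher (1.73 to 4.67). Of the 22 listed cortical factors, all were tested, 4 were called higher, 0 lower and 18 neither, beside 1.85% called higher over all tested genes, and the median log2 ratio was 0.60. The other called members of the list were Nfib and Nfia, nuclear factors that act in cortical and other neurons. Nfib was at 1779 and 602 CPM and Nfia at 1625 and 669 CPM. Nfib was not restricted to neurons: after each barcode was thinned to 1500 UMIs, it was found in 76.3% of members and in 69.6% of 263 mesenchymal-like barcodes. The subcortical factor Bcl11b (416 and 253 CPM) and Sox5 (621 and 417 CPM) were higher by less than 2-fold.

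The neurogenic list holds genes that act between progenitor and neuron. Of its 17 genes 15 were tested, 6 were called higher and 0 lower, beside the same 1.85% and 3.63%, with a median log2 ratio of 0.69. Neurod1, the bHLH factor between Eomes and the mature neuron, was at 200.3 CPM in members and 42.7 CPM in others, 4.69-fold higher (3.95 to 5.55). Its 207 UMIs were spread over 99 members. Sstr2, a somatostatin receptor, was at 29.0 and 3.89 CPM, and Rnd2, a small GTPase of migrating neurons that Neurog2 induces, at 80.3 and 19.7 CPM. Neurog2 itself was at 41.6 and 12.7 CPM, with 43 UMIs in 24 members. Nhlh2 and Nhlh1, bHLH factors of young neurons, had log2 ratios of 1.13 and 1.20.

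Glutamate release genes were found at low counts. Slc17a7, the vesicular transporter VGLUT1, was at 19.4 CPM in members and 1.50 CPM in others, 12.9-fold higher (6.29 to 27.1), from 20 UMIs in 19 members. After thinning, a UMI was found in 1.90% of 211 members and 0.140% of 2139 others, so most members had no UMI at this depth. Slc17a6 was at 160 and 56.2 CPM. Its thinned share was 21.3% of members and 7.11% of others, and without thinning it was 36.4% of 258 members and 10.6% of 3434 others. The 0 of 263 thinned mesenchymal-like barcodes with Slc17a6 gives no background level. Other barcodes with Slc17a6 and none of Gad1, Gad2 or Slc32a1 were placed in another group first. Thinning left out 47 members and 1295 others with fewer UMIs. The median depth was 2766.5 UMIs in members and 2498 in mesenchymal-like barcodes. Of 12 listed glutamate genes 10 were tested, and these transporters were the 2 called higher, with 0 lower, beside 1.85% and 3.63% over all tested genes. Without deep barcodes 3 were called higher and 1 lower. Of 14 general neuronal genes, 1 was called higher and 0 lower, beside the same 1.85% and 3.63%, with a median log2 ratio of 0.32. With 1 gene called, no excess is read from this list. The called gene was Rbfox3, the splicing factor known as NeuN, at 255 and 59.4 CPM, while the tubulin-binding Stmn2 was at 879 and 698 CPM and Dcx, a protein of migrating neurons, at 364 and 208 CPM.

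**Figure D2:**
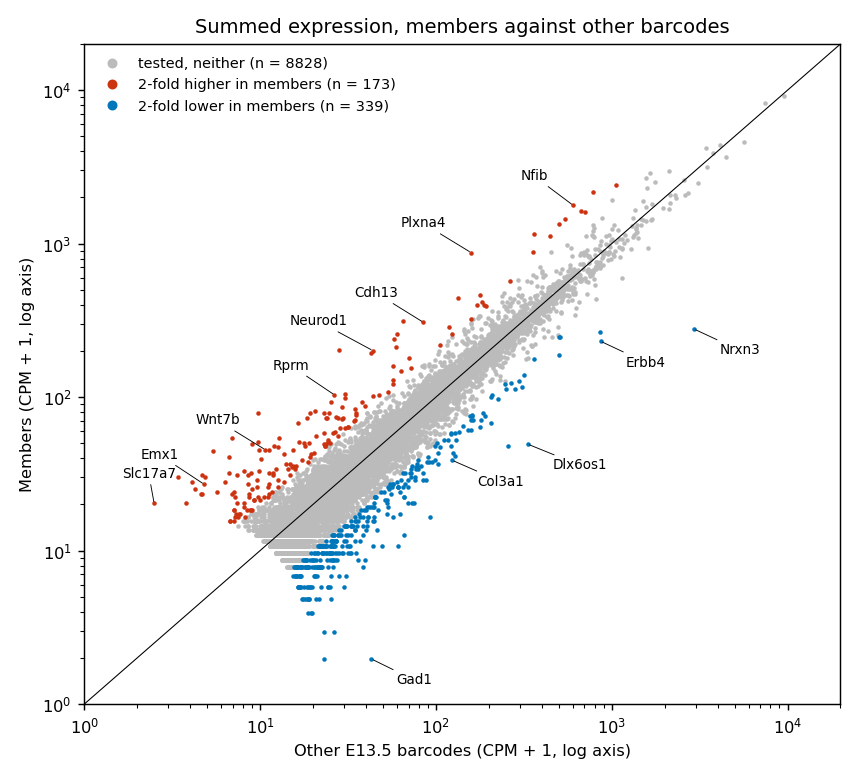
Summed level of each tested gene in members (vertical axis) against other E13.5 barcodes (horizontal axis), as CPM plus 1 on log axes; red and blue mark the 173 genes called higher and the 339 called lower, the line marks equal levels, and each point rests on 1 library. Plxna4, Neurod1 and Slc17a7 lie above the line, and Nrxn3, Dlx6os1 and Gad1 below it.

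Guidance receptors and ligands were among the genes that were higher. Of 26 axon guidance genes, all tested, 8 were called higher and 0 lower, beside 1.85% and 3.63% over all tested genes, with a median log2 ratio of 0.36. Plxna4 had the largest ratio of the list, with 875 CPM in members and 157 CPM in others, 5.56-fold (5.12 to 6.04). It was found in 155 members, and no single one held more than 3.10% of its UMIs. Plxnd1, the receptor of Sema3e, was at 31.9 and 7.09 CPM, and the ligand Sema3c at 70.6 and 28.3 CPM. Cntn2, an adhesion molecule of early cortical axons, was at 91.9 and 24.4 CPM. The ephrin receptors Epha5 (1449 and 541 CPM) and Epha3 (879 and 355 CPM), the repellent Slit1 (55.2 and 19.9 CPM) and the netrin receptor Unc5d (397 and 188 CPM) were the others. The Slit receptor Robo1 was at 601 CPM in members and 1147 CPM in others, a log2 ratio of -0.93. Without barcodes over 10000 UMIs, 10 of the 26 were called higher and 3 lower. Of 16 migration genes, 0 were called in either direction.

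The ranked genes of the whole table held further neuronal genes. Besides Plxna4, Neurod1, Rbfox3, Cntn2 and Reln, the 15 largest ratios among genes with a mean of at least 50 CPM included Lrfn5, a synaptic adhesion molecule, at 315 and 64.2 CPM. Clvs1 (194 and 42.0 CPM), Rprm (103 and 25.4 CPM), the cadherin Cdh13 (307 and 83.7 CPM) and the potassium channel subunit Kcnq3 (212 and 58.1 CPM) followed. Arpp21, Ppp2r2b, E130114P18Rik and Nkain3 had log2 ratios from 1.69 to 1.79. Apoe stood first by ratio, at 202 and 27.0 CPM, but 190 of its 209 UMIs lay in 1 member, which also held 28 UMIs of the complement gene C1qb. The 46 C1qb UMIs lay in 2 members, and C1qa, Tyrobp and Fcer1g, the other microglia or macrophage genes called higher, also had over 50% of their UMIs in 1 member each. Leaving out members with mesenchymal or myeloid genes turned Apoe to a log2 ratio of -2.25. Of 12 blood and vessel genes 7 were tested and 4 were called higher (C1qa, C1qb, Tyrobp and Fcer1g), with a list median of 1.52 (0.79 without deep barcodes) and sums of 7893 CPM in members and 9615 CPM in others.

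Genes of inhibitory neurons were lower, which the rule partly fixes. Gad1, which the rule did not name, had 1 UMI in all members and 421 in the others. Nrxn3, a synaptic adhesion gene, was at 277 CPM in members and 2941 CPM in others. Dlx6os1 (48.4 and 332 CPM), Adarb2 (47.4 and 257 CPM) and Erbb4 (230.3 and 864 CPM) were low in the same way, and Dlx1 had a log2 ratio of -2.49. Sox2ot, a long noncoding RNA, was at 266 and 855 CPM. Of the 14 GABAergic genes tested, 12 were called lower and 0 higher, beside the background of 3.63%. The rule used Gad2 and Slc32a1, so this list describes the selection and supports nothing.

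**Figure D3:**
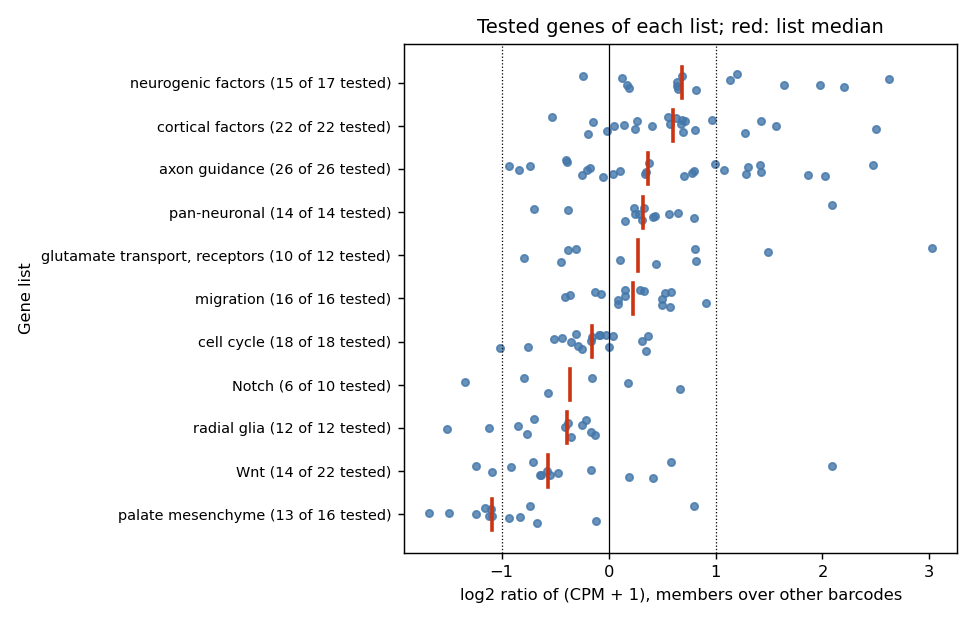
Log2 ratio of CPM plus 1 (horizontal axis), members over other barcodes, for each tested gene (dots) of 11 gene lists (vertical axis), with list medians in red and 2-fold marked by dotted lines. Among the lists drawn the medians go from 0.69 for neurogenic factors to -1.09 for palate mesenchyme. The GABAergic list (-1.60) and the blood and vessel list (1.52) are not drawn.

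Progenitor and palate genes were mostly not higher. Of 12 radial glia genes 0 were called higher and 2 lower, Hes1 (122 and 266 CPM) and Ednrb (6.77 and 21.2 CPM), and Pax6 was at 56.1 and 63.1 CPM. Of 18 cell cycle genes 1 was called lower and 0 higher, a share near the 3.63% called lower over all tested genes. Notch2 was the only Notch gene called, at 47.4 and 122 CPM. Of 14 tested Wnt genes, Wnt7b was called higher (44.5 and 9.68 CPM), and the antagonist Sfrp2 (36.8 and 88.5 CPM) and Wnt5b (8.71 and 19.7 CPM) lower. The Wnt target Axin2 had a log2 ratio of -0.71, and Sost, a secreted Wnt antagonist, had 1 UMI in members and 2 in others. Without deep barcodes 5 Wnt genes and 4 radial glia genes were called lower, beside 7.12% over all tested genes. Of 16 palate mesenchyme genes 13 were tested and 7 were called lower, among them Pax9 (6.77 and 17.4 CPM), the palate regulator, and the collagens Col1a1 (51.3 and 116 CPM) and Col1a2 (74.5 and 160 CPM). The ranked genes Col3a1 (37.7 and 123 CPM) and Fbn2 (40.6 and 127 CPM), both of the extracellular matrix, were low too. Col1a1 was found in 19 members, and 60.4% of its UMIs there lay in 5 of them. Without barcodes over 10000 UMIs, 10 of 12 tested palate mesenchyme genes were called lower, and the level of Pax9 in members was 1.34 CPM, a single UMI. The epithelial genes Krt5 and Krt15, the endothelial genes Cdh5 and Cldn5 and the glial genes Foxd3 and Olig2 had 0 UMIs in members. The limit of 3 counts given to a count of 0 is 2.90 CPM there. Summed over the lists, mesenchymal genes stood at 531 CPM in members and 972 CPM in others, epithelial genes at 82.2 and 177 CPM and glial genes at 32.9 and 74.2 CPM. Without deep barcodes these sums were 284 and 960 CPM, 21.4 and 169 CPM, and 25.4 and 77.6 CPM. The part of these cell types in the members' values was not tested, beyond the values without deep barcodes. Of other brain regions, 7 of 14 genes were tested and Foxp2 (247 and 507 CPM) and Tcf7l2 (245 and 501 CPM) were called lower.

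Globin RNA was present in every group. The globin Hba-a1 was found in 59.2% of thinned members, 61.9% of others and 64.6% of mesenchymal-like barcodes. Its level was 3646 CPM in members, where 1 member held 43.4% of the UMIs, and 4480 CPM in others. Of genes outside the rule, Neurod1 was found in 26.1% of thinned members, 3.69% of others and 0.760% of mesenchymal-like barcodes, and Plxna4 in 49.8%, 12.5% and 9.89%.

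The members were then set beside 3 neural groups of the same library, formed among the other barcodes from a few marker genes. GABAergic-like barcodes (935) held at least 2 of 7 GABAergic genes. They included 72 of the 86 barcodes with at least 2 selection genes that were removed for Gad2 or Slc32a1. Of the 935, 81 exceeded 10000 UMIs. Against them, 179 genes of 9225 were called higher in members (1.94%) and 225 lower (2.44%). Neurod1 (200.3 and 33.5 CPM), Plxna4 (875 and 192 CPM), Clvs1 (194 and 42.1 CPM), Slc17a6 (160 and 34.9 CPM) and Cntn2 (91.9 and 20.0 CPM) had the largest ratios after Apoe. The kainate receptor gene Grik3 was at 11.6 and 121 CPM. Of 7 tested blood and vessel genes 4 were called higher in members, with sums of 7893 and 11346 CPM, and their part was not tested. This list includes the myeloid genes C1qa, C1qb, Tyrobp and Fcer1g, whose UMIs lay mostly in few members, here and below. Without deep barcodes 276 of 9024 genes were called higher (3.06%) and 399 lower (4.42%), with Neurod1 at 250 and 26.2 CPM.

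Slc17a6-like barcodes (254) held Slc17a6 without Gad1, Gad2 or Slc32a1. Against this other glutamatergic group, 431 genes of 9141 were called higher in members (4.72%) and 397 lower (4.34%). Emx1 had 27 UMIs in members and 1 UMI in Slc17a6-like barcodes. Rprm (103 and 12.7 CPM) and Tiam2 (101 and 17.8 CPM), an activator of Rac, were among the largest ratios. Of 22 cortical factors 8 were called higher and 0 lower, with a median log2 ratio of 0.76 beside 0.00 for all tested genes. Tcf7l2, a Wnt effector typical of thalamus, was at 245 CPM in members and 1287 CPM in Slc17a6-like barcodes. Ntng1, a netrin-related adhesion gene (60.0 and 368 CPM), Cartpt (12.6 and 90.5 CPM), Syt13 (12.6 and 103 CPM), Mgat4c (28.1 and 154 CPM) and Sgcz (112 and 587 CPM) were lower as well. Of 8 tested genes of other brain regions, 6 were called lower. Blood and vessel genes moved with this comparison: 7 of 7 tested were called higher in members, with a median log2 ratio of 2.22 and sums of 7893 and 1707 CPM. Without deep barcodes these were 6 of 7, with sums of 4697 and 1700.3 CPM. The ranked globins Hbb-y and Hba-x had 45.8% and 66.0% of their member UMIs in 1 barcode. The list again includes the myeloid genes named above, and the part of blood and myeloid RNA in this comparison was not tested. Of 16 tested cell cycle genes 12 were called higher in members, with a median log2 ratio of 1.25, and without deep barcodes 4 of 15 were, 2 past the counting interval, beside 4.11% over all tested genes (3.09% past it). Of 14 general neuronal genes 1 was called higher and 3 lower, with a median of -0.68, and without deep barcodes 1 was called higher and 1 lower. Of the 353 barcodes with Slc17a6 and none of those 3 GABA genes, 94 were members (26.6%, 22.1 to 31.6).

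Radial-glia-like barcodes (70) held at least 3 of 5 radial glia genes and no Stmn2. Their sum is small, so a call here also needed the counting interval of the ratio past 1. By that rule 687 of 9365 genes were called higher in members (7.34%) and 993 lower (10.6%). Slc17a6 had 165 UMIs in members and 0 in radial-glia-like barcodes, which the order of grouping largely fixed. Other barcodes with Slc17a6 and none of Gad1, Gad2 or Slc32a1 had been placed in the Slc17a6-like group first. Arpp21 was at least 8.48-fold higher in members, against a floor of 3 counts over the radial-glia-like group. Neurod1 had 1 UMI there. Of 22 cortical factors 4 were called higher and 2 lower, with a median log2 ratio of 0.28. Fezf2 was found in 7.75% of members and in 8.57% of radial-glia-like barcodes, so it was not particular to members. Of 12 tested general neuronal genes all 12 were called higher, and of 18 cell cycle genes 14 were called lower. Blood and vessel genes were called higher for 7 of 7 tested (6 of 7 without deep barcodes), with sums of 7893 and 1927 CPM, and epithelial genes lower for 3 of 4. Of 11 tested palate mesenchyme genes 3 were called higher and 1 lower, and without deep barcodes 1 of 10 was called each way. The part of these other cell types in the comparison was not tested. Rfx4 (8.71 and 177 CPM) and Prdm16 (21.3 and 283 CPM), both genes of neural stem cells, were lower. The absence of Stmn2 and the 5 genes chose this group, so the neuronal and radial glia lists are a description of that choice.

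**Figure D4:**
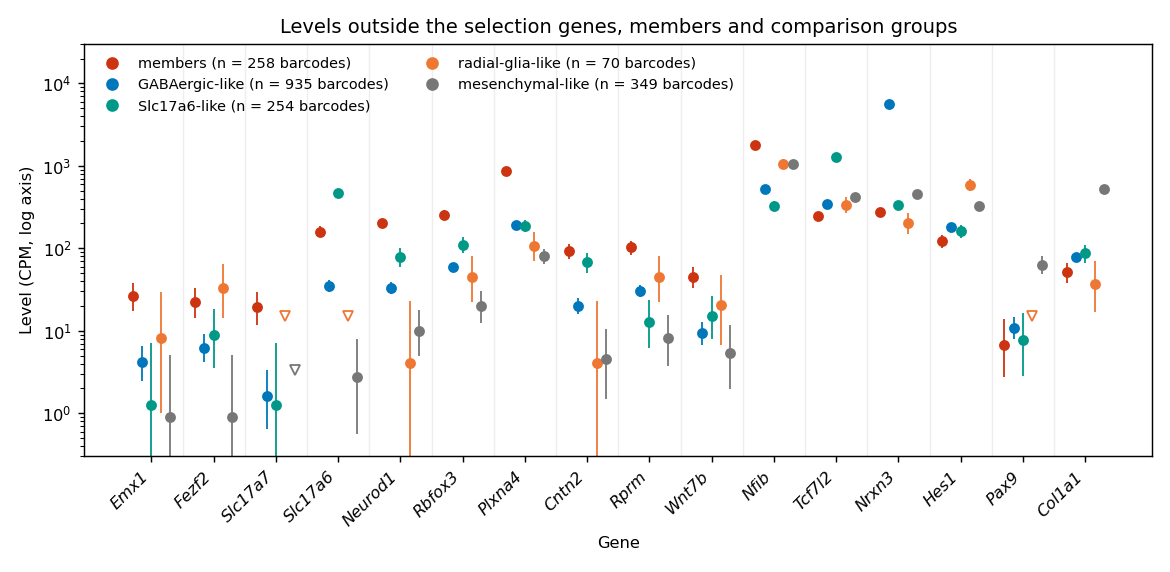
Level of 16 genes outside the selection (CPM, log axis) in members and 4 comparison groups of the E13.5 library; vertical lines are exact Poisson 95% intervals, and open triangles mark the upper limit where no UMI was found. Slc17a6 and Col1a1 helped to choose the Slc17a6-like and mesenchymal-like groups. The order of grouping kept most other barcodes with Slc17a6 out of the radial-glia-like and mesenchymal-like groups. Emx1 stands at 26.1 CPM in members, and Tcf7l2 is at 1287 CPM in Slc17a6-like barcodes.

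Within the members, Eomes and Neurod6 separated barcodes into 4 states. Eomes without Neurod6 was found in 25 members, both genes in 36, Neurod6 without Eomes in 137 and neither in 60. The states rest on detection, so a barcode of one state may hold undetected RNA of the other gene. The Eomes-only sum was small, at 124479 UMIs, so that 1 UMI was 8.03 CPM. A single barcode of 44058 UMIs made up 35.4% of it and held 23 of its 24 Epcam UMIs, all 16 of Pitx1 and 37 of 45 of Mki67. Values without barcodes over 10000 UMIs, which leave 23 Eomes-only members, are given beside many of the full ones.

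Some progenitor genes were higher in Eomes-only than in Neurod6-only members. Of 11 tested radial glia genes 6 were called lower in Neurod6-only members, all past the counting interval, and 5 were not called, beside 17.6% called lower over all tested genes (7.74% past the interval). Without deep barcodes 8 of 11 were called lower, beside 22.4% over all tested genes. Sox2 and Hes1 had 3 UMIs each in Eomes-only members without deep barcodes, where both stood at 45.4 CPM against 50.4 CPM in Neurod6-only members, and Slc1a3 was at 24.1 and 29.2 CPM over all barcodes of these states. Neurog2 was at 193 CPM in Eomes-only members, 28.2 CPM with both genes, 17.5 CPM in Neurod6-only members and 23.6 CPM with neither. Without the deep barcodes the Eomes-only level was 363 CPM and the Neurod6-only level 20.1 CPM. The Notch effector Hes5 was at 80.3 CPM and 5.84 CPM in the Eomes-only and Neurod6-only states (136 and 7.56 CPM without deep barcodes), and Pax6 at 161 and 38.9 CPM (167 and 35.3 CPM). Emx1 was at 56.2 CPM in Eomes-only and 21.4 CPM in Neurod6-only members, from 7 and 11 UMIs, with overlapping intervals. Without deep barcodes these were 90.9 and 22.7 CPM, from 6 and 9 UMIs, with a ratio interval of 0.0793 to 0.852. Top2a, a topoisomerase of dividing cells, stepped from 1076 CPM in Eomes-only members to 784 CPM with both and 238 CPM in Neurod6-only members (803, 658 and 149 CPM without deep barcodes). At least 3 of the 18 cell cycle genes were found in 14 of 25 Eomes-only members (95% interval 34.9% to 75.6%), 16 of 36 with both (27.9% to 61.9%), 25 of 137 Neurod6-only members (12.2% to 25.7%) and 15 of 60 with neither (14.7% to 37.9%). After thinning to 1500 UMIs these shares were 38.9%, 26.7%, 12.7% and 9.43%.

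Of 14 general neuronal genes 6 were called higher in Neurod6-only than in Eomes-only members, 4 of them past the counting interval, and 8 were not called, beside 11.9% called higher over all tested genes (3% past the interval). Among those not called, Rbfox3 was at 243 CPM in Neurod6-only and 249 CPM in Eomes-only members, Dcx at 378 and 329 CPM and Map2 at 1189.7 and 988 CPM, an order that turned without deep barcodes (1166 and 1196 CPM). Stmn2 was at 225 CPM in Eomes-only members, 529.7 CPM with both and 1096 CPM in Neurod6-only members (151, 518 and 1138 CPM without deep barcodes). The axonal protein gene Mapt was at 64.3 and 286 CPM in the Eomes-only and Neurod6-only states (15.1 and 289.6 CPM without deep barcodes), and the AMPA receptor subunit Gria2 at 64.3 and 315 CPM (45.4 and 345 CPM). Of 10 tested glutamate genes 3 were called higher in Neurod6-only members, 1 past the interval, 1 lower, Grm7 (72.3 and 31.2 CPM in the Eomes-only and Neurod6-only states), and 6 neither, among them Grik2 (1301 and 806 CPM). Of 22 cortical factors 3 were called higher, 3 lower (2 past the interval) and 16 neither, beside 11.9% and 17.6% over all tested genes. Without deep barcodes 6 were called higher and 4 lower, beside 15% and 22.4% over all tested genes. Past the interval these were 2 and 4, beside 2.74% and 7.41%. The higher ones included Bcl11b at 177 and 555 CPM (182 and 609.5 CPM without deep barcodes) and Sox5 at 313 and 775 CPM (348 and 746 CPM). The lower ones were Emx1, Cux1 at 386 and 166 CPM and Zbtb20 at 546 and 236 CPM. Plxna4 was at 337 and 1116 CPM (257 and 1222 CPM). Cdh13 was at 24.1 and 481 CPM (45.4 and 456 CPM), with 3 UMIs in Eomes-only members. All 20 UMIs of Slc17a7 lay outside the Eomes-only state, 15 of them in Neurod6-only members. With 0 UMIs in Eomes-only members, the exact Poisson upper limit of its level there was 29.6 CPM.

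Members with both genes had the highest level of a further set. Unc5d was at 1271 CPM with both genes, against 145 CPM in Eomes-only, 284 CPM in Neurod6-only and 260.0 CPM with neither. Robo2, a Slit receptor, was at 2147 CPM with both, against 699, 683 and 623 CPM. Neurod1 was at 388 CPM with both (293 to 506), against 225, 175 and 134 CPM, and its interval overlapped that of Eomes-only members (149 to 325). Members with both genes stayed highest without the deep barcodes, with Unc5d at 1575 CPM, Robo2 at 2442 CPM and Neurod1 at 508 CPM. The 3 genes were picked for this pattern after their values were seen.

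Over all genes, 1066 of 8974 were called higher in Neurod6-only than in Eomes-only members (11.9%) and 1577 lower (17.6%). The Eomes-only sum is small, and with the counting interval of the ratio also past 1 these were 269 (3%) and 695 (7.74%). Of 17 tested cell cycle genes 14 were called lower in Neurod6-only members, 12 of them past the counting interval, with a median log2 ratio of -1.96 beside -0.15 for all tested genes. Of 16 migration genes 6 were called higher and 1 lower. Tuba1a, the main tubulin of migrating neurons, was at 3127 CPM in Neurod6-only and 1189 CPM in Eomes-only members (3428 and 1181 CPM without deep barcodes), and Cdk5r1, the activator of the migration kinase Cdk5, at 123 and 40.2 CPM (136 and 30.3 CPM). Of 26 axon guidance genes 6 were called higher and 3 lower, 6 and 2 of them past the interval, and 17 neither. Among them, Dcc and Epha3 went against Plxna4 and Sema6d: Dcc was at 4097 CPM in Eomes-only and 1999.7 CPM in Neurod6-only members (6708 and 2206 CPM without deep barcodes). Beside these, palate mesenchyme genes were measured in the same states: of 9 tested, 4 were called higher in Neurod6-only members (Col1a1, Col3a1, Msx1 and Prrx1), 1 of them past the interval. Without deep barcodes 0 of them were past it. Epithelial genes were called lower for 6 of 6 tested, and without deep barcodes 0 of 10 reached the minimum to be tested. The globin Hba-a1 was at 5111 CPM in Neurod6-only members, where 1 barcode held 62.4% of its UMIs, and at 3559 CPM in Eomes-only members. Without deep barcodes it was at 2075 and 529.97 CPM (fold interval 2.79 to 5.66), and its thinned share was 58.2% of Neurod6-only, 50% of Eomes-only and 69.8% of members with neither gene. Of 8 tested early response and heat shock genes 2 were called lower in Neurod6-only members, Fos and Junb, both past the interval, and without deep barcodes Fos, Fosb and Atf3 were called lower, only Fos past it, and Junb was not called, beside 22.4% over all tested genes (7.41% past the interval). The part of blood RNA and of dissociation response in the states was not tested.

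The ranked genes of this comparison rested on few UMIs. Tiam2 had 75 UMIs in Neurod6-only and 0 in Eomes-only members, at least 6.06-fold higher against 3 counts over the group, and Ppp1r14c was at least 4.93-fold higher. Without deep barcodes the bound was 2.66-fold for both, from 48 UMIs each. Rab3a, a synaptic vesicle GTPase, Cnr1, the cannabinoid receptor, Fstl5, Xkr6 and Lrrtm4 each had 1 UMI in Eomes-only members and 51 to 55 in Neurod6-only members. Nxph1 had 45.9% and Hbb-bh1 had 88.7% of their Neurod6-only UMIs in 1 barcode. In the other direction, Celsr1, an adhesion gene of planar polarity, had 16 UMIs in Eomes-only and 2 in Neurod6-only members, and it was at 167 and 5.04 CPM without deep barcodes. Cenpe, Incenp, Phactr2 and Tst had log2 ratios from -4.54 to -3.18. Gstm1, Epcam, Pitx1 and Krt18 also ranked there, and Epcam, Pitx1 and Krt18 came mainly from the single deep barcode. Of the 10 smallest ratios, only Celsr1 and Neurog2 kept a place there without deep barcodes, and Gstm1 and Tst did not.

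**Figure D5:**
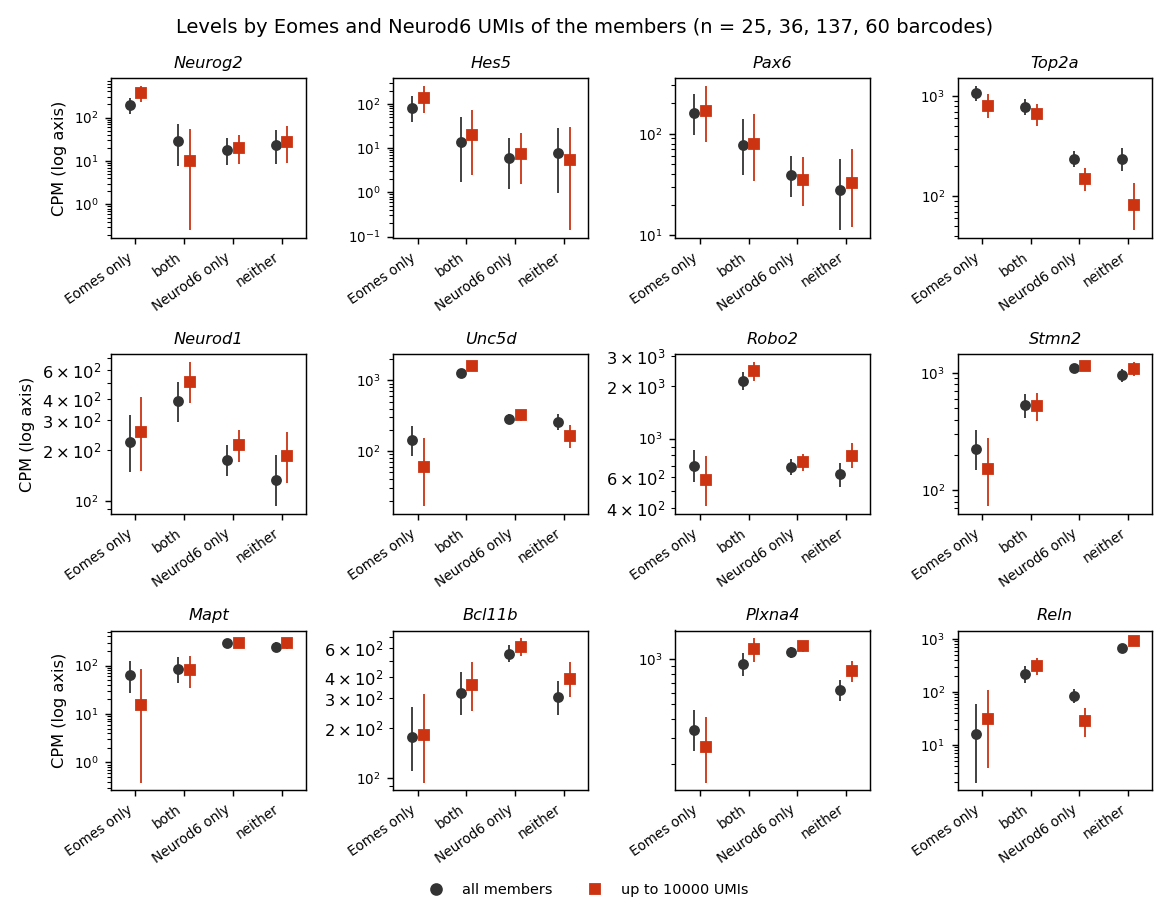
Level (CPM, log axis) of 12 genes in members with Eomes only, both genes, Neurod6 only or neither (25, 36, 137 and 60 barcodes); black circles are all members, red squares leave out barcodes over 10000 UMIs, and lines are exact Poisson 95% intervals. Neurog2, Hes5 and Top2a are highest in Eomes-only members, Unc5d and Robo2 with both genes, Stmn2 and Bcl11b in Neurod6-only members, and Reln with neither.

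The level of Reln was highest in members with neither gene, although most members with a Reln UMI lay in other states. Reln, the secreted protein that Cajal-Retzius cells of the cortical surface release, was at 666 CPM in members with neither Eomes nor Neurod6, 219 CPM with both, 83.7 CPM in Neurod6-only members and 16.1 CPM in Eomes-only members. Without deep barcodes the Neurod6-only level was 27.7 CPM and the Eomes-only level 30.3 CPM, so the order of these 2 states turned. Reln was found in 29 members, 13 with neither gene, 9 Neurod6-only, 5 with both and 2 Eomes-only, and 74.7% of its 245 UMIs lay in 5 of them. The 11 members with at least 3 Reln UMIs had a median of 14, and 10 of them held Tbr1, 10 held Bhlhe22 and 5 held Neurod6. All 4 members with Trp73, a p53 relative found in Cajal-Retzius cells, were among these 11. Against 229 members without Reln, the calcium channel subunit Cacna2d2 was at 263 and 12.4 CPM, 21.2-fold higher (9.22 to 50.4). The LIM factor Lhx1 was 6.23-fold higher (2.89 to 12.7) and Ebf2, at 903 and 239 CPM, was 3.77-fold higher (2.75 to 5.10). Ebf3 was 3.04-fold (1.85 to 4.798) and Nhlh2 3.52-fold higher (1.86 to 6.26), and Cxcr4 had 3 UMIs against 1. The ratio of Lhx5 was 1.04 (0.0246 to 6.83), that of Ebf1 1.12 (0.754 to 1.62) and that of Calb2 3.64 (0.376 to 18.2), with intervals that held 1, and Barhl2 had 0 UMIs against 3. Bcl11b (525 and 419 CPM) differed by less than 2-fold between these groups. The 11 members were deeper, with a median of 4692 UMIs against 2662 in those without Reln, and the part of depth in this grouping was not tested. Another 49 E13.5 barcodes outside the members held at least 3 Reln UMIs.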

How the data were processed

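RNA of single cells from palatal shelves was counted with the 10x Genomics droplet protocol. The authors deposited whole-number UMI counts for each gene and barcode. Per the file headers, the matrices were written by Cell Ranger 6.1.2, and mm10 is the build in the submitters' processing notes. The E13.5 library held 11472663 UMIs in 4236 barcodes, E14.5 held 5293977 in 2079 and E15.5 held 8313677 in 3113. The 32285 genes of the tables were used as named there, with positions from GENCODE M21 on the same build.

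Counts of a group's barcodes were summed and divided by their total (CPM). Groups were compared by the log2 ratio after adding 1 CPM, over genes with a mean of at least 10 CPM, leaving out the 6 selection and 2 excluding genes and the genes that formed a comparison group. A call is a 2-fold ratio. Levels have exact Poisson intervals, ratios the exact binomial interval of the counts, and shares Clopper-Pearson intervals, all at 95%. UMIs of 1 barcode are not independent, so the intervals are too narrow for other sources of error. No p-value was computed, since each stage has 1 library. A count of 0 was given a limit of 3 counts. The comparison was also run on simulated Poisson counts drawn from the pooled profile of the library. These held no variation between barcodes, so they cannot show how the comparison handles it. Python 3.11.15, numpy 2.4.6, scipy 1.17.1, pandas 2.3.3 and scanpy 1.11.5 were used.

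The members and gene lists were chosen with earlier results of these data known. Named genes are the rule's genes, the largest and smallest ratios among genes with a mean of at least 50 CPM (15 and 8 against other barcodes, 10 and 10 between states, 6 and 6 otherwise), the 3 largest and 2 smallest of each list, and Pax9, Axin2, Sost, Slc17a7, Slc17a6, Reln, Emx1, Bcl11b, Fezf2, Neurog2 and Pax6. Some genes under this rule are not reported here. A few further list genes were named after their values were seen. Alternatives changed the minimum number of selection genes, the exclusion, the gene minimum, doublet scores, depth, sex, weighting, pseudocount, CPM minimum and reference group. Comparison groups were formed without overlap in the order GABAergic-like, Slc17a6-like, radial-glia-like and mesenchymal-like, and the stricter call for radial-glia-like barcodes was chosen after the data had been seen. Mesenchymal-like barcodes held at least 3 of Col1a1, Col1a2, Col3a1, Postn, Dcn, Prrx1 and Twist1.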

Additional observations from a re-analysis of the deposited data

How the results depend on the processing

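The share of members moved from 6.99% to 3.39% with at least 3 selection genes, 9.32% without the exclusion for Gad2 or Slc32a1, 9.05% with at least 1000 genes per barcode and 5.23% after thinning to 1500 UMIs. Genes called higher in members went from 173 to 78 without the exclusion, 551 after thinning and 568 with no CPM minimum. Genes called lower went from 339 to 42 without the exclusion, 1204 after thinning, 671 with the mean of each barcode's CPM, 214 with a pseudocount of 5 CPM, 1670 with no CPM minimum, 658 without barcodes over 10000 UMIs and 595 without members with mesenchymal or myeloid genes. Genes higher in Neurod6-only than in Eomes-only members went from 1066 to 2697 after thinning, 1642 with mean CPM, 4447 with no CPM minimum and 269 with the counting interval past 1. Those lower went from 1577 to 1040 without the exclusion, 2656 with no CPM minimum and 695 with the interval. The causes were not tested, except that with no CPM minimum more genes are tested, 21355 against 9340 and 14363 against 8974, and that thinning redraws the members and leaves 123, with 8 in the Eomes-only state.

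Of 58 named genes called against other barcodes, between 31 (without the exclusion) and 58 stayed 2-fold the same way. Of 37 called between Neurod6-only and Eomes-only members, 21 did so after thinning, and 31 (without barcodes over 10000 UMIs, and without the exclusion) to 37 under the others. Genes with at most 3 UMIs in both states were not evaluated and count here as not kept. Of the 38 named genes of this comparison, 26 were evaluated after thinning and 32 without barcodes over 10000 UMIs. With at least 3 selection genes, after thinning, and without members with mesenchymal or myeloid genes, log2 ratios reversed to -2.58, -5.43 and -2.25 for Apoe, -2.75, -2.74 and -2.23 for C1qa, -3.80, -3.63 and -3.30 for C1qb, -1.43, -3.91 and -2.11 for Tyrobp, and -3.79, -0.64 and -3.48 for Fcer1g. Fabp7 reversed to 6.79 after thinning in the comparison of Neurod6-only with Eomes-only members. Leaving out barcodes over 10000 UMIs, leaving out members with other markers, and requiring the counting interval were chosen after the data had been seen. The planned comparison of barcodes with Y-linked RNA and no Xist was not run, because 0 members held a Y-linked UMI. No paired analysis was possible because each stage has 1 library. Depth limits the Eomes-only state most: 1 UMI there is 8.03 CPM.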

Other observations

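Among members with neither Eomes nor Neurod6, the early neuronal factors Ebf2 (500.4 CPM) and Nhlh2 (150 CPM) were at their highest of the 4 states. Ebf2 was at 332 CPM in members with both genes, 193 CPM in Eomes-only and 169 CPM in Neurod6-only members. Nhlh2 was at 63.6, 72.3 and 64.3 CPM in the same order. Mesenchymal-like barcodes held Ebf2 at 271 CPM. Tbr1 was at 256 CPM in members with neither gene, and at 112 CPM in Eomes-only members, both a description since Tbr1 is a gene of the rule. Without barcodes over 10000 UMIs, Reln in members with neither gene was at 906 CPM.

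Early response and heat shock genes, which respond to cell dissociation, were listed as 10 genes. Of 8 tested, 0 were called in either direction against the other barcodes, and the median log2 ratio was 0.17. Fos was at 287 CPM in members and 231 CPM in others, and Jun at 437 and 478 CPM. Within the members, Fos was at 506 CPM in Eomes-only and 220.0 CPM in Neurod6-only members, and 848 and 209 CPM without barcodes over 10000 UMIs.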
